A study of Mus musculus with 12 samples.

Results

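This report describes 10 genes of ATP-dependent chromatin remodelers in mouse oligodendrocyte precursor cells (OPCs): Chd1, Chd2, Chd3, Chd4, Chd6, Chd7, Chd8 and Chd9 of the chromodomain helicase family, and Smarca2 and Smarca4, the alternative ATPases of the SWI/SNF complex. They were taken by symbol from the array annotation, in which each of them was assigned to 1 transcript cluster, the set of probes summarized to a single value. The array holds 65535 clusters. For 8 members the cluster carried their own symbol alone, which placed them among 30077 genes with such a cluster, whereas the cluster of Chd2 also lists 1810026B05Rik and that of Chd4 also lists Mir7045, so the values given under these names belong to the shared clusters. Primary OPCs of C57Bl/6 mice were sorted with anti-CD140a beads from brain at postnatal day 2, plated at 300000 cells per well, expanded with PDGFAA and bFGF for 48 h and switched for 24 h to a medium with T3 and without these factors. About 4 h after the switch, at 2 donor microglia per OPC, the cells received extracellular vesicles (EVs) from microglia stimulated with pro-inflammatory cytokines (i-EVs), from microglia stimulated with interleukin 4 (IL4-EVs) or from microglia that shared the culture with mesenchymal stem cells under the same kind of cytokines (MSC-EVs), while the controls (CTRL) received medium alone. Each of the 4 groups had 3 samples, with 1 Clariom D array per sample. No group with EVs of unstimulated microglia was analysed here. The methods call the samples of a group independent replicates without naming separate litters or cultures. The p-values therefore speak of the variation among these samples, which may in part be technical.

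Remodelers of this kind use the energy of ATP to slide, eject or exchange nucleosomes, and so open or close DNA to transcription factors. CHD proteins carry a pair of chromodomains that read histone tails next to an ATPase of the SNF2 type, and they fall into subfamilies formed by Chd1 and Chd2, by Chd3, Chd4 and Chd5, and by Chd6 to Chd9. In the oligodendrocyte lineage of the mouse, Smarca4, also known as Brg1, is recruited by Olig2 to enhancers at the onset of differentiation, Chd7 acts together with Sox10 at myelination genes, and Chd8 is needed for the expression of Chd7.

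The values were RMA intensities, which the authors had background corrected and quantile normalized over the 12 arrays, turned here to log2, and the precision was limited by the 3 arrays per group. All clusters were fitted together with limma, a linear model with moderated spread. The words rose and fell are used of genes with an adjusted p under 0.05 (Benjamini-Hochberg over all 65535 clusters), and DEGs also had a fold of at least 1.5. All 7 measured OPC markers had means of at least 6 log2 units, as did 4 of 7 astrocyte markers (Sox9, S100b, Slc1a2 and Slc1a3). The other astrocyte markers, Gfap, Gja1 and Aldh1l1, had means of 3.60, 3.57 and 4.96. The level was also reached by 4 of 7 neuron markers (Map2, Dcx, Snap25 and Tubb3), while Rbfox3, Stmn2 and Syt1 had means of 3.81, 3.78 and 5.01. It was reached by 0 of 9 microglia markers and 0 of 9 fibroblast and endothelial markers. Of 7 myelin markers 2 reached this level, and none rose or fell against CTRL. The mean level of the OPC markers was 15.69 to 15.75 in CTRL, 15.81 to 15.90 after i-EVs, 15.83 to 15.90 after IL4-EVs and 15.76 to 15.88 after MSC-EVs. That of the astrocyte markers was 6.89 to 6.92 in CTRL, 6.85 to 6.88 after i-EVs, 6.84 to 6.87 after IL4-EVs and 6.72 to 6.87 after MSC-EVs. The neuron markers lay between 7.56 and 7.63 after MSC-EVs and between 7.61 and 7.68 in CTRL. The paper reports only very low contamination of its OPC cultures by astrocytes or microglia. From the arrays, whether astrocytes or neurons were present, and their part in the members' values, was not tested. The mean level of the microglia markers lay between 3.47 and 3.57 after MSC-EVs, between 3.53 and 3.61 after IL4-EVs, between 3.58 and 3.67 after i-EVs and between 3.58 and 3.63 in CTRL. RNA came from whole cultures, in which fewer cells of a type and less RNA per cell cannot be told apart. MSC-EVs replicate 3 stood apart in the cell cycle genes, whose mean level there was 11.88, against 10.39 and 10.38 in the other MSC-EVs arrays and 10.81 to 11.02 in CTRL. With i-EVs and IL4-EVs the same level lay between 10.38 and 10.50, below all CTRL arrays.

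The promoter windows of 3 members with a single listed start are printed here as examples, because the members moved together in these arrays. They were read from RefSeq, 5′ to 3′, from 250 bases before to 50 bases after the start, and capitals mark every match, on either strand, to the Sp1 motif (GGGCGG), to the box that is named by its letters CCAAT, to an ETS motif (CCGGAAG) or to an NRF1 half-site (TGCGCA).
Chd6, GRCm38.p6 chr2:161109037-161109336, minus strand: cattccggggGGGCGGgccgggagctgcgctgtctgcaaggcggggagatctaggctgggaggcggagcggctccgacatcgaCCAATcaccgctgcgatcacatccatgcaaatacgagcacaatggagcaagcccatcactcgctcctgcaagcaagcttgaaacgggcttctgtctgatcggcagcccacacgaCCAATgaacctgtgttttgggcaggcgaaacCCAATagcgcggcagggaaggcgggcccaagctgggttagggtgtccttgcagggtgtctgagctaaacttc
Chd8, GRCm38.p6 chr14:52257711-52258010, minus strand: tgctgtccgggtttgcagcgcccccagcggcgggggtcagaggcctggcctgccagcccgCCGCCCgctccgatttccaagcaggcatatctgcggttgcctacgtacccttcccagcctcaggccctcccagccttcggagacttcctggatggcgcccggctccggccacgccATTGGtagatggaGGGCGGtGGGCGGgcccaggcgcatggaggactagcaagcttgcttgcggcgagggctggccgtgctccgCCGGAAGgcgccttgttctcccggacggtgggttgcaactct
Smarca4, GRCm38.p6 chr9:21615919-21616218, plus strand: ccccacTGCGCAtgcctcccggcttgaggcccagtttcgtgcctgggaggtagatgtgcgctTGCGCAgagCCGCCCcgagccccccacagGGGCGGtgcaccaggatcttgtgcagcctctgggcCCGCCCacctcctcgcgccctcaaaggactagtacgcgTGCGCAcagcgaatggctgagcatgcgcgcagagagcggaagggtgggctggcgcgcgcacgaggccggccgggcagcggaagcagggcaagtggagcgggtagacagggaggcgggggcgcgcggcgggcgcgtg
RefSeq windows were at hand for 6 of the 10 members, 8 windows in all, since Chd4 and Chd9 have more than 1 (those of Chd4 overlap each other). The Sp1 motif was found in 7 of the 8 member windows, against 35.7% of all 32851 windows of the same length. The CCAAT box was found in 4 of 8, against 37.4%, the ETS motif in 2 of 8, against 8.86%, and the NRF1 half-site in 1 of 8, against 7.76%. A YY1 motif (AANATGGCG) and a CREB motif (TGACGTCA) were found in 0 of 8 windows, against 2.38% and 1.79% of all windows. No match overlapped a match to another motif in the member windows. Chd6 carried 3 CCAAT boxes and 1 Sp1 motif, Smarca4 had 3 Sp1 motifs, 3 NRF1 half-sites and no CCAAT box, and Chd8 had 3 Sp1 motifs, 1 CCAAT box and the ETS letters just after its start. The median GC content was 65.7% in the member windows and 52.7% in all windows. These matches describe the sequence and do not show that a factor is bound.

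Exposure to EVs was accompanied by higher fitted levels of the remodeler genes, least with i-EVs and most with MSC-EVs. With IL4-EVs 9 of 10 members rose against CTRL and with MSC-EVs 9 of 10 rose, none fell, and Chd3 was the member that missed the threshold in both. With i-EVs no member passed it, although all 10 fitted differences were positive. Over the members the median log2 fold change reached 0.53 with MSC-EVs, 0.41 with IL4-EVs and 0.20 with i-EVs, while the median over all genes was -0.035, -0.016 and 0.0038. Chd7 had the highest fold change of the 10 with MSC-EVs (log2 fold change 1.06, a 2.08-fold level), and Smarca2 the lowest (0.27, 1.20-fold). The 3 comparisons share the CTRL arrays, so their values are not independent of each other.

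**Figure D1:**
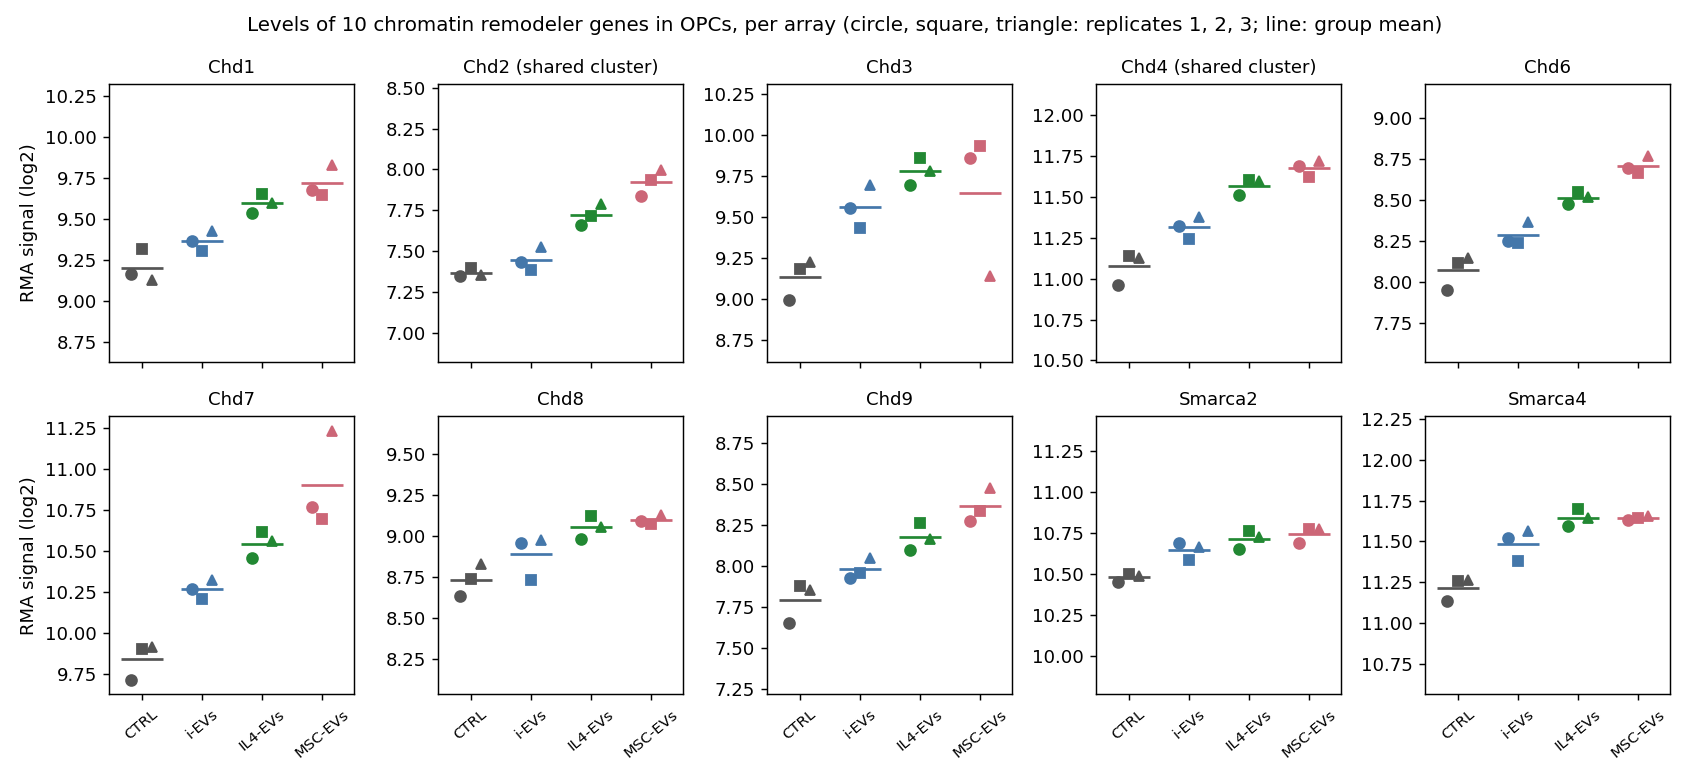
RMA signal (log2, y axis, each panel spanning the same range) of the 10 remodeler genes in the 12 arrays, by group (x axis). Symbols are single arrays and lines are group means. The group means are higher at each step from CTRL over i-EVs and IL4-EVs to MSC-EVs in 8 of 10 panels, CTRL replicate 1 is low in most, and MSC-EVs replicate 3 is high for Chd7 (11.24) and low for Chd3 (9.14).

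Chd7, a remodeler that binds active enhancers and whose loss of function in humans causes CHARGE syndrome, showed the widest range. Its log2 signals were 9.71, 9.90 and 9.91 in CTRL, 10.27, 10.21 and 10.33 with i-EVs, 10.46, 10.62 and 10.56 with IL4-EVs and 10.77, 10.70 and 11.24 with MSC-EVs. Each group lay above the one before it, with no overlap between any pair of groups. Chd7 was a DEG with IL4-EVs (log2 fold change 0.70, SE 0.12, limma adjusted p = 0.00677) and with MSC-EVs (1.06, SE 0.12, adjusted p = 0.000533). It did not pass the threshold with i-EVs (0.43, adjusted p = 0.134), but did so in 2 of 20 alternative analyses. Without MSC-EVs replicate 3, the highest array, the difference with MSC-EVs was 0.89 log2 units. That array also had the high cell cycle genes, whose part in the level of Chd7 was not tested.

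Chd6 and Chd9 belong to the same subfamily as Chd7. The log2 signals of Chd6 were 7.95, 8.12 and 8.15 in CTRL, 8.25, 8.24 and 8.37 with i-EVs, 8.48, 8.55 and 8.52 with IL4-EVs and 8.70, 8.67 and 8.77 with MSC-EVs. All MSC-EVs arrays lay above all IL4-EVs arrays, and these above all i-EVs and CTRL arrays. Chd6 was a DEG with MSC-EVs (log2 fold change 0.64, SE 0.07, limma adjusted p = 0.000458) and rose with IL4-EVs (0.44, adjusted p = 0.00413). Chd9 had log2 signals of 7.65, 7.88 and 7.85 in CTRL, 7.93, 7.96 and 8.05 with i-EVs, 8.10, 8.26 and 8.17 with IL4-EVs and 8.28, 8.34 and 8.48 with MSC-EVs. It rose with IL4-EVs (0.38, SE 0.08, limma adjusted p = 0.0198) and with MSC-EVs (0.57, adjusted p = 0.00135), in which its 3 arrays lay above all others. The call with IL4-EVs was kept in 17 of 20 alternative analyses.

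Chd8 is bound at the promoters of many active genes, and its human counterpart is among the genes most often mutated in autism. Its log2 signals were 8.63, 8.74 and 8.83 in CTRL, 8.96, 8.73 and 8.98 with i-EVs, 8.98, 9.12 and 9.06 with IL4-EVs and 9.10, 9.08 and 9.13 with MSC-EVs. The i-EVs arrays overlapped CTRL, whereas all IL4-EVs and MSC-EVs arrays lay above them and overlapped each other. Chd8 rose with IL4-EVs (log2 fold change 0.32, SE 0.08, limma adjusted p = 0.0387) and with MSC-EVs (0.37, adjusted p = 0.0108). The call with IL4-EVs was kept in 12 of 20 alternative analyses. That with MSC-EVs was lost in 1 of 20, without CTRL replicate 1 (adjusted p = 0.0543).

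Chd3 and Chd4 are alternative ATPases of the NuRD complex, which joins nucleosome remodeling to histone deacetylation. The cluster shared by Chd4 and Mir7045 had log2 signals of 10.96, 11.14 and 11.12 in CTRL, 11.32, 11.24 and 11.38 with i-EVs, 11.51, 11.60 and 11.60 with IL4-EVs and 11.69, 11.62 and 11.72 with MSC-EVs. The 4 groups were fully separate in this order. It rose with IL4-EVs (log2 fold change 0.49, SE 0.07, limma adjusted p = 0.00238) and was a DEG with MSC-EVs (0.60, SE 0.07, adjusted p = 0.000494). Chd3 differed from all other members. Its log2 signals were 8.99, 9.18 and 9.23 in CTRL, 9.55, 9.43 and 9.70 with i-EVs, 9.69, 9.86 and 9.78 with IL4-EVs and 9.86, 9.93 and 9.14 with MSC-EVs. All EV-treated arrays but 1 lay above CTRL, and the exception, MSC-EVs replicate 3, lay within the CTRL range. With IL4-EVs the log2 fold change of 0.64 (SE 0.17) had a limma adjusted p of 0.051. With MSC-EVs that of 0.51 (SE 0.17) had an adjusted p of 0.0794. The standard deviation was 0.44 with MSC-EVs, 0.08 with IL4-EVs and 0.12 in CTRL. As the 4 groups share 1 estimate of the spread, MSC-EVs replicate 3 also enters the IL4-EVs test. Without MSC-EVs replicate 3 the difference with MSC-EVs was 0.76 (adjusted p = 0.00121). That with IL4-EVs, still 0.64, was called as well (adjusted p = 0.0017).

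Chd1 binds histone tails of active promoters and acts during elongation by RNA polymerase II, and Chd2 is its close relative. The log2 signals of Chd1 were 9.17, 9.32 and 9.13 in CTRL, 9.36, 9.30 and 9.43 with i-EVs, 9.54, 9.65 and 9.60 with IL4-EVs and 9.68, 9.65 and 9.83 with MSC-EVs. The i-EVs arrays overlapped CTRL, and the IL4-EVs and MSC-EVs arrays lay above both. Chd1 rose with IL4-EVs (log2 fold change 0.39, SE 0.07, limma adjusted p = 0.0104) and again with MSC-EVs (0.51, adjusted p = 0.00139), and the first of these calls was kept in 18 of 20 alternative analyses. The cluster shared by Chd2 and 1810026B05Rik had log2 signals of 7.35, 7.40 and 7.36 in CTRL, 7.44, 7.38 and 7.53 with i-EVs, 7.66, 7.72 and 7.79 with IL4-EVs and 7.84, 7.93 and 8.00 with MSC-EVs. Here i-EVs gave the smallest difference of the 10 members (0.08, 95% interval -0.06 to 0.23), while IL4-EVs (0.35, limma adjusted p = 0.00975) and MSC-EVs (0.56, adjusted p = 0.000571) were followed by a rise.

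Smarca4 and Smarca2 are mutually exclusive ATPases of SWI/SNF. Smarca4 had log2 signals of 11.13, 11.26 and 11.26 in CTRL, 11.52, 11.38 and 11.56 with i-EVs, 11.60, 11.70 and 11.64 with IL4-EVs and 11.63, 11.64 and 11.66 with MSC-EVs. The i-EVs arrays already lay above CTRL and below IL4-EVs, and the MSC-EVs arrays lay within the range of IL4-EVs. Smarca4 rose by about the same amount with IL4-EVs (log2 fold change 0.43, SE 0.07, limma adjusted p = 0.00405) as with MSC-EVs (0.42, adjusted p = 0.00201), and had the lowest adjusted p of the members with i-EVs (0.27, adjusted p = 0.0881). The interval of the difference between MSC-EVs and IL4-EVs reached from -0.15 to 0.14. Smarca2, or Brm, had log2 signals of 10.45, 10.50 and 10.49 in CTRL, 10.69, 10.59 and 10.67 with i-EVs, 10.65, 10.76 and 10.72 with IL4-EVs and 10.69, 10.78 and 10.77 with MSC-EVs. All EV-treated arrays lay above CTRL and the EV groups overlapped, apart from i-EVs and MSC-EVs, which touched without overlap. Smarca2 rose with IL4-EVs (0.23, SE 0.06, limma adjusted p = 0.0414) and as well with MSC-EVs (0.27, adjusted p = 0.0118). The first of these calls was kept in 9 of 20 alternative analyses, and the second was lost without CTRL replicate 1 (adjusted p = 0.0522).

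**Figure D2:**
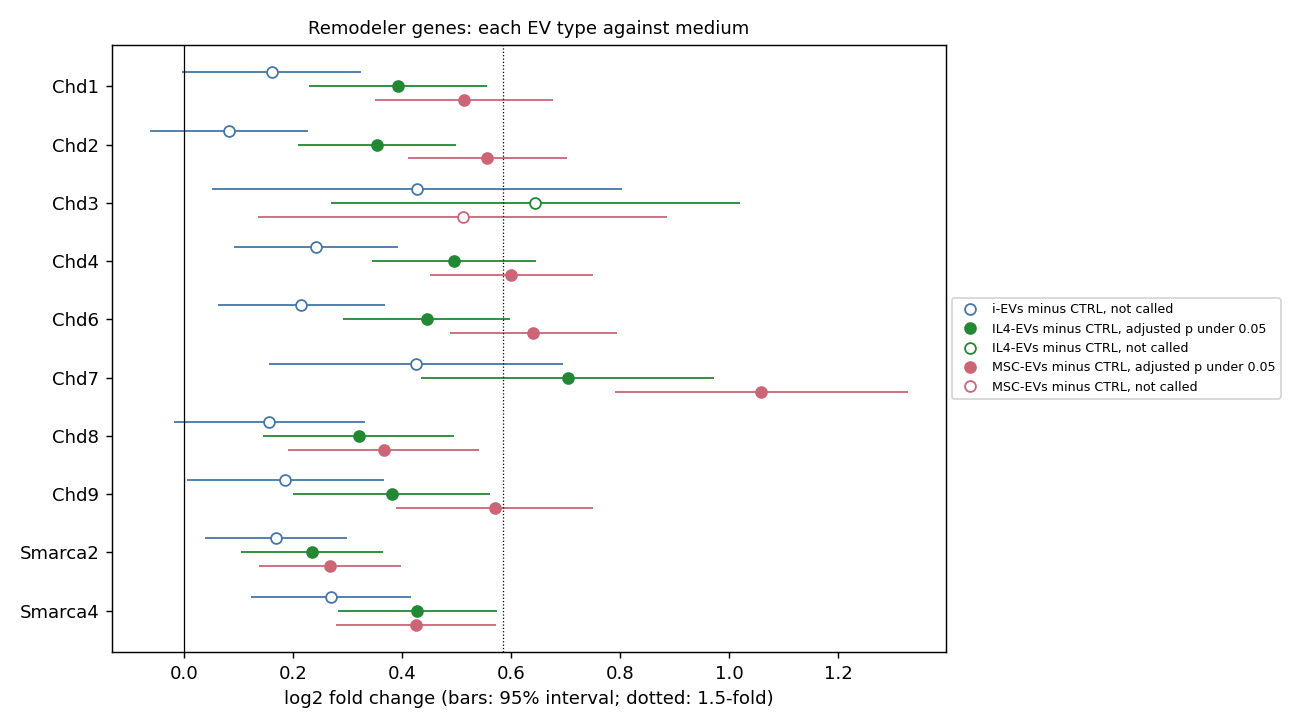
Log2 fold change against CTRL (x axis) of each remodeler gene (y axis) for each of the 3 EV types, from 3 arrays per group. Points are fitted differences, bars their 95% intervals, filled points have an adjusted p under 0.05 and the dotted line marks a 1.5-fold difference. All points lie right of 0, and the MSC-EVs point of Chd7 (1.06) is the farthest.

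These counts stand against the following background. With i-EVs 0 of 10 members rose, where 0.0977% of all clusters did. At an unadjusted p under 0.05 there were 7 of 10 members, against 13.3% of all clusters in either direction, and 2 and 3 members were called after quantile normalization was repeated and after cyclic loess. In 7 of 10 members all i-EVs arrays lay above all CTRL arrays, as they did in 9.52% of all clusters. With IL4-EVs 9 of 10 members rose, where 1.61% of all clusters did, and with MSC-EVs 9 of 10, where 5.86% did. Dim clusters rarely reach the threshold, so the share was also taken over the 6877 protein-coding genes with a mean of at least 6 log2 units, a level that all 10 members passed. Of these, 11.5% rose with MSC-EVs, 6.86% with IL4-EVs and 0.364% with i-EVs, and their median log2 fold changes were -0.09, -0.10 and -0.07. Among the 8 members with a cluster of their own, 7 rose with IL4-EVs and 7 with MSC-EVs. All 10 members lay above CTRL without overlap with IL4-EVs, against 11.8% of all clusters, and 9 of 10 with MSC-EVs, against 12.4%.

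DEGs were fewer. Chd7 was the only member that was a DEG with IL4-EVs, where 0.537% of all clusters were higher DEGs, and Chd4, Chd6 and Chd7 were DEGs with MSC-EVs, where 3.12% were. Chd9 (1.48-fold) and the shared cluster of Chd2 (1.47-fold) stood just below the 1.5-fold threshold with MSC-EVs, and Chd4 (1.52-fold) and Chd6 (1.56-fold) just above it. The single array most often at the edge was CTRL replicate 1, the lowest of the 12 arrays in 9 of 10 members, and MSC-EVs replicate 3 was the highest in 7 of 10. Without CTRL replicate 1, 5 members rose with IL4-EVs, 7 rose with MSC-EVs and 1 was a DEG with MSC-EVs. Without IL4-EVs replicate 2, 5 rose with IL4-EVs, and without MSC-EVs replicate 1 there were 5 DEGs with MSC-EVs.

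The EV types were also compared with each other, which asks whether the gradation of the group means is larger than the spread. Between MSC-EVs and i-EVs, 6 of 10 members were higher with MSC-EVs, where 1.07% of all clusters were. They were Chd1, Chd2, Chd4, Chd6, Chd7 and Chd9, with log2 differences from 0.35 (Chd1, limma adjusted p = 0.0463) to 0.63 (Chd7, adjusted p = 0.0354). Chd3, Chd8, Smarca2 and Smarca4 differed by 0.08, 0.21, 0.10 and 0.16. These calls were close to the threshold: 0 of 10 members were called without i-EVs replicate 1, 0 without MSC-EVs replicate 3, 5 without CTRL replicate 1 or MSC-EVs replicate 2, and 1 to 3 without any one of the other arrays. Between IL4-EVs and i-EVs, limma called 0 of 10 members and 0% of all clusters, with 7 of 10 members and 7.56% of all clusters at an unadjusted p under 0.05. Between MSC-EVs and IL4-EVs it called 0 of 10 members, where 0.00153% of all clusters were higher, with 4 of 10 members and 8.91% of all clusters at an unadjusted p under 0.05. The fitted difference between these EVs was 0.36 for Chd7 (95% interval 0.09 to 0.62) and 0.20 for Chd2 (0.06 to 0.35), while that for Smarca2 was 0.03 (-0.10 to 0.16) and that for Chd8 0.05 (-0.13 to 0.22). The group means had MSC-EVs on top, then IL4-EVs, then i-EVs and CTRL lowest in 8 of 10 members, with Chd3 and Smarca4 as the exceptions, in 8.51% of all clusters and in 13.6% of the protein-coding genes with a mean of at least 6.

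**Figure D3:**
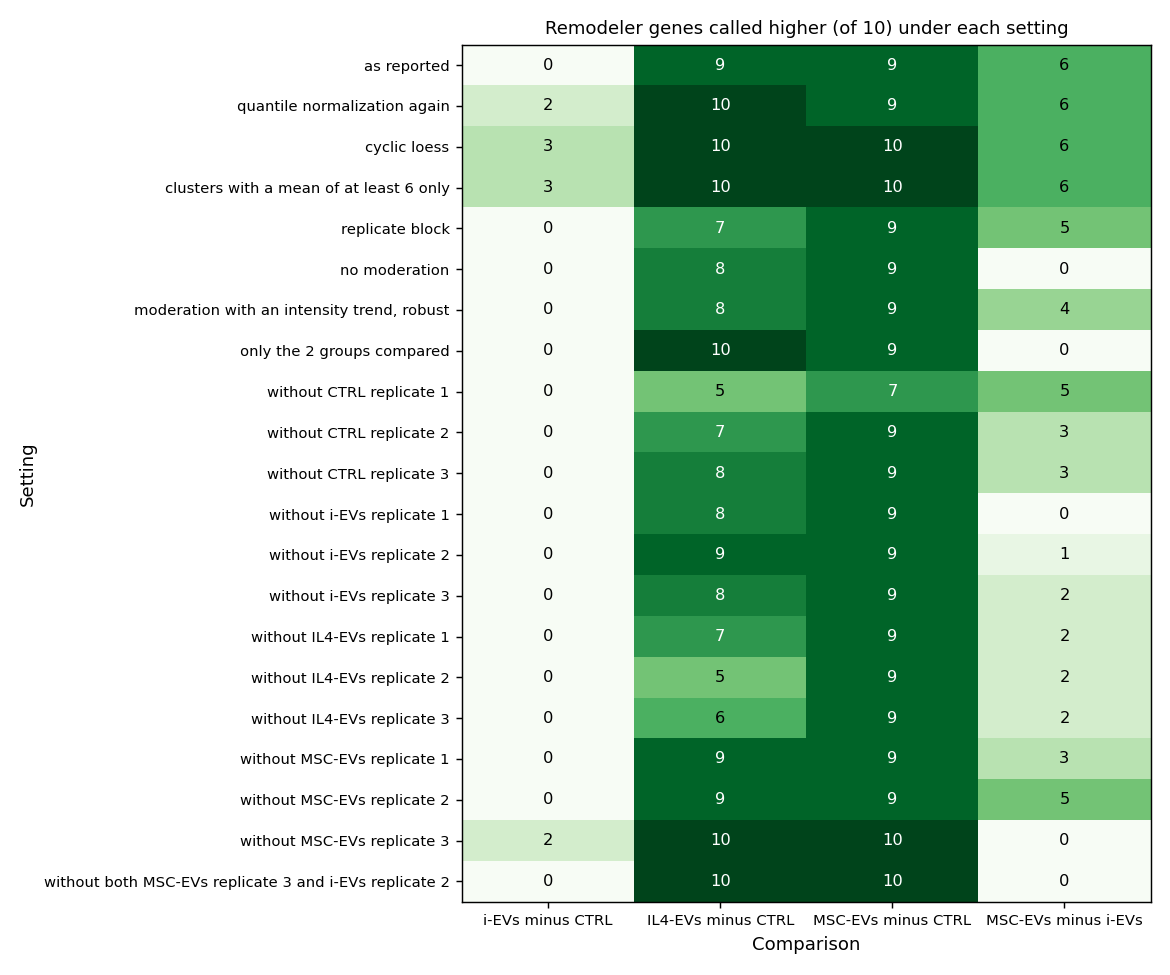
Number of the 10 remodeler genes called higher (number in each cell, darker for more) in 4 comparisons (x axis) as reported and under 20 alternative settings (y axis). With MSC-EVs against CTRL the count stays between 7 and 10, with IL4-EVs between 5 and 10, and between MSC-EVs and i-EVs it runs from 0 to 6.

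Across the 12 arrays the members followed each other closely, with the exception of Chd3. Pearson's r between pairs of the other 9 members lay between 0.83 (Chd2 with Smarca4) and 0.99 (Chd4 with Chd6), and r with Chd3 between 0.48 (Chd7) and 0.78 (Smarca4). These points share group and normalization, so r takes in the differences between groups. With the group means removed, r between pairs of the other 9 members lay between 0.41 (Chd1 with Chd8) and 0.96 (Chd8 with Smarca4). That with Chd3 then lay between -0.63 (Chd7) and 0.32 (Smarca4). Members thus also varied together from array to array within groups, and their calls are not independent of each other. The 5 genes most like Chd7 over the 12 arrays, out of 6876 protein-coding genes with a mean of at least 6, were Cdc42bpa (r = 0.998), Arhgef12 (0.995), Phlpp1 (0.994), Fat1 (0.993) and Mycbp2 (0.993). In all, 182 genes reached an r of 0.95 with Chd7. The genes most like Smarca4 were Heatr5a (0.991), Sbf2 (0.990), Kmt2e (0.987), Ep300 (0.986) and Sox6 (0.985), and 130 genes reached an r of 0.95. Ep300 encodes a histone acetyltransferase, Kmt2e a chromatin protein and Sox6 a transcription factor of OPCs. Like Smarca4, they differed more between CTRL and IL4-EVs (Ep300 0.78 log2 units) than between IL4-EVs and MSC-EVs (0.83 against CTRL with MSC-EVs).

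A rise of this size was not particular to remodelers by these counts. A list of 48 very long mRNAs of other functions, written with earlier results of these data known, had 42 measured genes, of which 33 rose with MSC-EVs, 28 with IL4-EVs and 4 with i-EVs, and none fell. Their median log2 fold changes were 0.59, 0.45 and 0.24, close to those of the members, and their mean level ran from 6.87 to 7.05 in CTRL and from 7.56 to 7.76 with MSC-EVs. Fat1 and Mycbp2, named above for their likeness to Chd7, are on this list. The part of transcript length in the members' values was not tested.

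The partners of the members moved in both directions. Over all clusters 4.13% fell with IL4-EVs, 6.75% fell with MSC-EVs and 0.378% fell with i-EVs. Among the protein-coding genes with a mean of at least 6, 24.6% fell with MSC-EVs, 20.5% fell with IL4-EVs and 1.79% fell with i-EVs. The shares of SWI/SNF and NuRD partners that fell, given next, are close to this background. Of the same genes, 11.5% rose with MSC-EVs and 6.86% with IL4-EVs. The SWI/SNF partners that rose were a larger share than this, and the NuRD partners that rose a smaller one. SWI/SNF had 25 measured partners, 20 of them with a mean of at least 6. Of the 25, 5 rose and 4 fell with IL4-EVs and 8 rose and 7 fell with MSC-EVs, with a median log2 fold change of -0.02. The sign of this median flipped to 0.03 after cyclic loess. Without CTRL replicate 1, CTRL replicate 3, IL4-EVs replicate 2 or IL4-EVs replicate 3, 0 of these partners rose with IL4-EVs in limma. Arid2, a DNA-binding subunit of the PBAF form, was a DEG with MSC-EVs (log2 fold change 0.70, limma adjusted p = 0.00138), and rose by 0.42 with IL4-EVs (adjusted p = 0.032, kept in 11 of 17 alternative analyses). Actl6a, the actin-related subunit of progenitor cells, fell by 0.74 with IL4-EVs (limma adjusted p = 0.00198) and by 0.60 with MSC-EVs (adjusted p = 0.00195). Ss18, another subunit of the core complex, fell by 0.62 with MSC-EVs (limma adjusted p = 0.00124), by 0.56 with IL4-EVs and by 0.50 with i-EVs (adjusted p = 0.0427), the one partner called with i-EVs. Among the others that rose with MSC-EVs were Arid1b (0.34) and Pbrm1 (0.42), and among those that fell were Smarcb1 (-0.37) and Smarce1 (-0.34), named after their values were seen.

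Of 12 NuRD partners of Chd3 and Chd4, 0 rose and 3 fell with IL4-EVs and with MSC-EVs, and limma called none with i-EVs. The genes that fell were in both comparisons Hdac1, a histone deacetylase (log2 fold change -0.51 with MSC-EVs), Rbbp4, a histone chaperone (-0.46, limma adjusted p = 0.00163), and Cdk2ap1, a small subunit (-0.48, adjusted p = 0.00117). These 3 of 12 are close to the 24.6% and 20.5% of expressed protein-coding genes that fell. Gatad2b (0.22, adjusted p = 0.518) and Mta1 (0.03, adjusted p = 0.871) were not called with MSC-EVs. The list's median with MSC-EVs was -0.04 and turned to 0.04 and 0.11 after quantile normalization was repeated and after cyclic loess.

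In the other families of remodelers, 3 of 11 ISWI genes rose with IL4-EVs and 4 with MSC-EVs, while 1, Chrac1 (mean 4.49), fell in both. Bptf, which reads methylated histones for the NURF complex, was a DEG with both (log2 fold change 0.61 with IL4-EVs, limma adjusted p = 0.00203, and 0.76 with MSC-EVs, adjusted p = 0.000416). Of 18 genes of the INO80, SRCAP and TIP60 complexes, 4 rose and 8 fell with IL4-EVs and 5 rose and 8 fell with MSC-EVs. Of these 18 genes, 15 had a mean of at least 6. Ino80b, Ino80e and Znhit1, among those that fell with MSC-EVs, had means of 5.65, 5.30 and 5.61. Both shares were larger than among the protein-coding genes with a mean of at least 6. Of those, 6.86% rose and 20.5% fell with IL4-EVs, and 11.5% rose and 24.6% fell with MSC-EVs. Srcap, the ATPase that deposits the histone variant H2A.Z (0.92 with MSC-EVs, limma adjusted p = 0.000322), Trrap, a large scaffold (0.92, adjusted p = 0.000355), and Ep400, an ATPase (0.73, adjusted p = 0.000621), were DEGs. Of 8 other SNF2-family ATPases, 2 rose and 1, Smarcad1, fell with IL4-EVs, and 4 rose and 0 fell with MSC-EVs, led by Atrx, a remodeler of heterochromatin (0.71, limma adjusted p = 0.00043). Chd5, the remaining gene of the CHD subfamilies, and Chd1l, which is outside them, were not called in any comparison with CTRL (Chd5 0.04 and Chd1l -0.15 with MSC-EVs). Chd5 had a mean of 4.48, below the minimum of 6.

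Grouped by activity after these values were seen, and therefore with no test, the 15 SNF2-type ATPases outside the 10 members had 7 that rose and 0 that fell with MSC-EVs (median log2 fold change 0.25). The 61 measured partners without such an ATPase in the SWI/SNF, NuRD, ISWI and INO80 lists had 14 that rose and 19 that fell (median -0.04, or 0.07 after cyclic loess). With IL4-EVs the counts were 4 and 1 of 15, and 10 and 16 of 61. The shares over the protein-coding genes with a mean of at least 6 were 11.5% up and 24.6% down with MSC-EVs. With IL4-EVs they were 6.86% up and 20.5% down. The part of transcript length in this grouping was not tested.

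**Figure D4:**
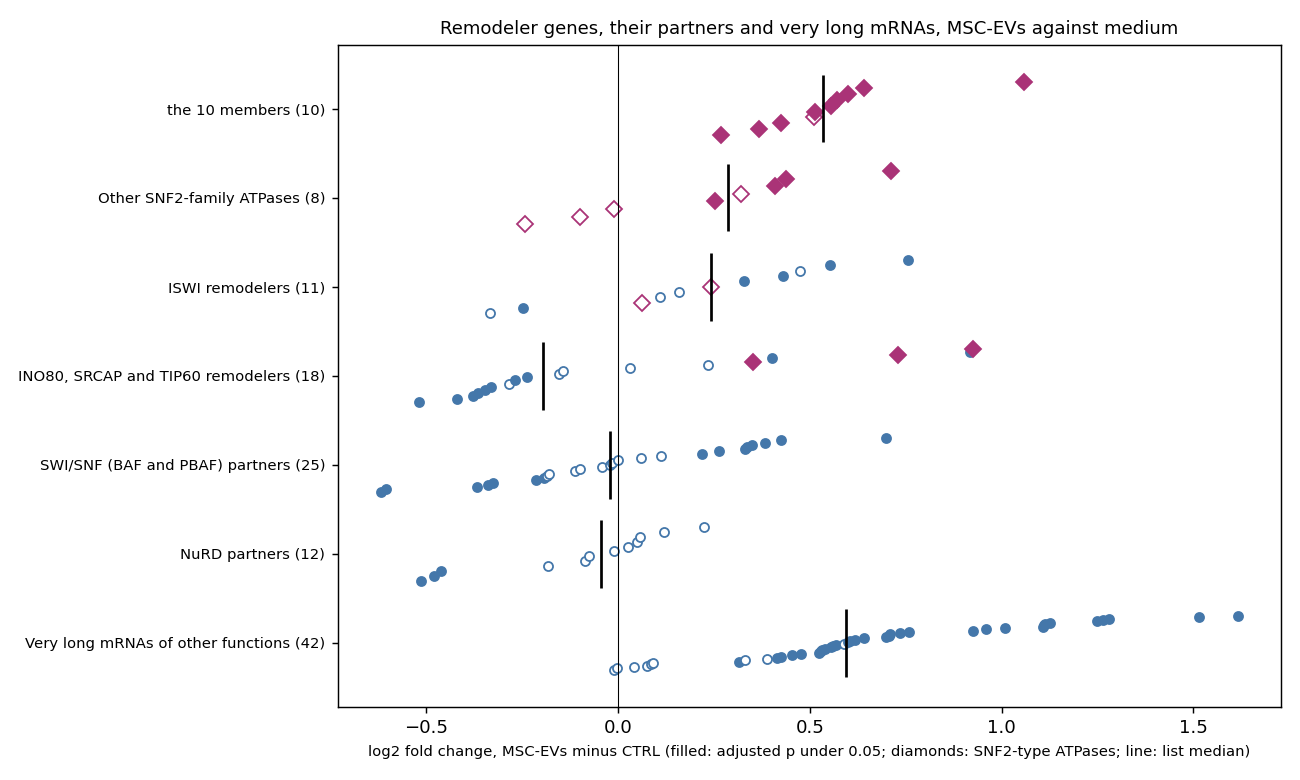
Log2 fold change with MSC-EVs against CTRL (x axis) of single genes, by list (y axis, number of measured genes in brackets). Diamonds are SNF2-type ATPases, circles other genes, filled symbols have an adjusted p under 0.05 and vertical lines are list medians. The members and the very long mRNAs lie mostly right of 0 (medians 0.53 and 0.59), while the SWI/SNF, NuRD and INO80 lists lie on both sides.

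Of 13 measured genes that are partners or targets of Chd7, Chd8 and Smarca4 in the oligodendrocyte lineage, limma called 0 with i-EVs and 0 with IL4-EVs, and with MSC-EVs 1 rose and 2 fell. Over the protein-coding genes with a mean of at least 6, 11.5% rose and 24.6% fell with MSC-EVs. The counts of the list depended on MSC-EVs replicate 3. All groups share the estimate of the spread, so this array also enters the tests of i-EVs and IL4-EVs. Without it, 2 rose and 0 fell with i-EVs, 4 rose and 1 fell with IL4-EVs and 4 rose and 1 fell with MSC-EVs. The shares of all clusters called in that fit are not given here, so the counts without the array stand without a background. Over the 17 alternative analyses of the list, 1 to 5 rose with MSC-EVs and 0 to 4 with IL4-EVs, while 0 to 3 fell with MSC-EVs and 0 after cyclic loess. Myrf, a regulator of myelin genes, had log2 signals of 8.27, 8.26 and 6.08 with MSC-EVs. Its log2 fold change with MSC-EVs was 0.06 with all arrays (limma adjusted p = 0.969) and 0.79 without replicate 3 (adjusted p = 0.00122), and that with IL4-EVs was 0.76, with an adjusted p of 0.465 and 0.00111, in this order. Sox10, the partner of Chd7, had log2 signals of 14.62, 14.77 and 13.95 with MSC-EVs, and its log2 fold change was -0.22 with all arrays (adjusted p = 0.522) and 0.02 without replicate 3 (adjusted p = 0.947). In both genes the low array was replicate 3. Kmt2a, a histone methyltransferase, was higher in that array (9.28, against 8.60 and 8.49 in the others), and rose with MSC-EVs by 1.01 with all arrays (limma adjusted p = 0.00228) and by 0.76 without it (adjusted p = 0.000703). With IL4-EVs its log2 fold change of 0.60 had an adjusted p of 0.0573 with all arrays and 0.00133 without that one. Ash2l and Wdr5, small subunits of the same methyltransferase complexes, fell with MSC-EVs by 0.26 and 0.23, and by 0.23 (adjusted p = 0.0524, no longer called) and 0.25 without replicate 3. Olig2, which recruits Smarca4, had a log2 fold change of 0.04 with MSC-EVs (adjusted p = 0.773), and of 0.04 without replicate 3. Its mean was very high (19.09), and the same signal of 19.0833 recurred in every group. Whether a change could show at this level was not tested.

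Of 11 measured cell cycle genes, Ccnb2, a mitotic cyclin, was the one gene called in a comparison with CTRL, and fell by 1.39 with IL4-EVs (limma adjusted p = 0.0195, kept in 12 of 17 alternative analyses). Here too the count depended on MSC-EVs replicate 3, in which these genes were high. The fold changes with i-EVs and IL4-EVs do not use this array, but their tests do, through the spread shared by all groups. For Ccnb2 with IL4-EVs the value stayed at -1.39 without the array, and the limma adjusted p became 0.000684. In that fit, 7 fell with i-EVs, 9 fell with IL4-EVs and 9 fell with MSC-EVs. Of the 11, 1, Mki67, a marker of cycling cells, rose with IL4-EVs and with MSC-EVs. Over the 17 alternatives the number that fell ran from 0 to 9 in the comparisons of MSC-EVs and of IL4-EVs, and from 0 to 7 in that of i-EVs. The part of the cell cycle genes in the members' levels was not tested.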

How the data were processed

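The 12 samples were grouped by their labels, 3 per group. The authors deposited intensity values from RMA on perfect-match probes, with background correction, quantile normalization and summarization to 65535 transcript clusters, returned to a linear scale. Affymetrix Expression Console is named, without a version, in the notes that the submitters gave, and no genome build of the annotation was found in the sources. The second deposited intensity table held the same values. Intensities were turned to log2 without a pseudocount.

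The fit used limma 3.58.1 (R 4.3.3) with 1 mean per group over all 12 arrays, 8 residual degrees of freedom, two-sided tests and Benjamini-Hochberg adjustment over all clusters within each of 6 comparisons. It was tested on simulated data first. Per gene, the cluster with the highest mean was used. All members were named. Of each companion list the up to 4 DEGs with the smallest p were named, otherwise the 2 genes with the smallest p with MSC-EVs, and for Chd7 and Smarca4 the 5 genes of highest r. The members and all lists were chosen with earlier results of these data known. A planned description by protein length was not run, as protein lengths were not at hand, and the list of very long mRNAs was used instead. Alternatives were another normalization, a filter on dim clusters, the replicate block, other moderation, fits of only 2 groups and leaving out each array. The analysis with both outlying arrays left out, that of own clusters and that of single companion genes without MSC-EVs replicate 3 were chosen after seeing the data. Figures were drawn with matplotlib 3.10.9.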

Additional observations from a re-analysis of the deposited data

Results flagged for a closer look

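For some genes the effects of 2 kinds of EVs differed by a direct limma test of MSC-EVs against i-EVs. Among the members these were Chd1 (0.35, adjusted p = 0.0463), Chd2 (0.47, adjusted p = 0.0215), Chd4 (0.36, adjusted p = 0.0331), Chd6 (0.43, adjusted p = 0.0258), Chd7 (0.63, adjusted p = 0.0354) and Chd9 (0.38, adjusted p = 0.0471), as log2 differences. In each of these members all 3 MSC-EVs arrays lay above every i-EVs array, as they did in 8.11% of all clusters. That share was 14% among the protein-coding genes with a mean of at least 6. Among the named companion genes Arid2 (0.48, adjusted p = 0.047), Bptf (0.44, adjusted p = 0.0291), Srcap (0.55, adjusted p = 0.0258), Trrap (0.50, adjusted p = 0.0296), Ep400 (0.41, adjusted p = 0.0486) and Atrx (0.43, adjusted p = 0.0286) were higher with MSC-EVs and Cdk2ap1 (-0.36, adjusted p = 0.0329) was lower. No member was called here in fits without i-EVs replicate 1 or without MSC-EVs replicate 3. The groups had 3 arrays each, too few to test a single array against its group.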

How the results depend on the processing

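The members' log2 fold changes against CTRL kept their direction in all 20 alternatives, and 552 of these values kept their side of the threshold, 22 passed it newly and 26 lost it. Of the named companion genes, Chd5 with MSC-EVs changed sign, to -0.041 after quantile normalization was repeated. With i-EVs, 2 members were called after quantile normalization was repeated, 3 after cyclic loess, 3 among clusters with a mean of at least 6, and 0 to 2 in the leave-one-out analyses, and cyclic loess gave a median of 0.29. With IL4-EVs, 5 to 10 members were called over the leave-one-out analyses, and the median was 0.50 after quantile normalization was repeated and 0.52 after cyclic loess. The DEGs with IL4-EVs were 3 after either normalization, 2 with the filter on the mean, 2 in the fit of only the 2 groups compared, 2 without both MSC-EVs replicate 3 and i-EVs replicate 2, and 1 to 2 in the leave-one-out analyses. With MSC-EVs, 7 to 10 members were called in the leave-one-out analyses, and DEGs were 8 after cyclic loess and 1 to 5 in the leave-one-out analyses. Between MSC-EVs and i-EVs, 0 members were called without moderation, 0 in the fit of only these 2 groups, 0 without both arrays and 0 to 5 in the leave-one-out analyses. The cause of these moves was not tested. Over all clusters, 1054 rose and 2708 fell with IL4-EVs, against 1484 and 2037 after quantile normalization was repeated and 1771 and 1906 after cyclic loess. With MSC-EVs 3843 rose and 4424 fell, against 4674 and 3565 after cyclic loess, and with i-EVs 64 and 248, against 183 and 167, and 326 and 194. Whether the replicate numbers pair the samples could not be settled with 3 arrays per group. Of the correlations of deviations, 8 of 18 were above 0.1, and 5 of 12 arrays correlated best with their own number. The correlations ran from 0.09 to 0.33 for replicate 1, from -0.03 to 0.20 for replicate 2 and from -0.30 to 0.16 for replicate 3. With the replicate number as a block, 7 members were called with IL4-EVs, 9 with MSC-EVs and 5 between MSC-EVs and i-EVs. Over 17 alternatives, the SWI/SNF partners that rose with IL4-EVs numbered 0 to 7, those with MSC-EVs 4 to 9, the very long mRNAs that rose 18 to 33 with IL4-EVs, 28 to 35 with MSC-EVs and 0 to 16 with i-EVs, and the ATPases outside the members 6 to 8 with MSC-EVs and 3 to 7 with IL4-EVs. Averaging several clusters of a gene could not be run, as each member has 1 cluster. The precision was limited by the 3 arrays per group.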
